A study of Mus musculus with 5 samples.

Results

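Microglia are the resident macrophages of the retina, and 9 genes that mark them or that they are a main source of are described here in nuclear RNA of mouse retina. The genes are C1qa, C1qb and C1qc, which encode the chains of complement C1q, the receptor genes Csf1r, Cx3cr1, P2ry12 and Trem2, the membrane protein gene Tmem119 and the protease gene Ctss. They were chosen by symbol, each had 1 of the 16422 genes' values, and all 9 had passed the authors' expression filter in both conditions. Nuclei came from mice of genotype Aldhl1l-Cre/Ert2+; NuTRAP+ (as the labels spell it) treated with tamoxifen, in which Cre driven by the Aldh1l1 promoter turns on a reporter that biotin-tags the nuclear envelope. Both retinae of 1 animal made up a sample. Tissue left undissociated by homogenisation, described in the protocol as mostly blood vessels, was spun out before the nuclei were divided. The Input group is whole-retina nuclei of animals 40 and 55 (n = 2), and the Positive group is nuclei captured on streptavidin beads, named Müller glia in the series' design text, from animals 12, 40 and 55 (n = 3). All 5 libraries carry the same alleles, and age and sex are not given in the labels used here. Values are the authors' normalised log2 values relative to a baseline of each gene near its Input libraries. They show differences between libraries but no expression level, and the depth behind them is unknown.

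C1q is the recognition part of the classical complement pathway: it binds surfaces, immune complexes and cell debris, activates the proteases C1r and C1s, and leads to cleavage of C4, C2 and C3. In the nervous system microglia are the main source of its chains, and in the mouse visual system C1q and C3 have been tied to the removal of synapses. CSF1R, the receptor for CSF1 and IL-34, keeps microglia alive. CX3CR1 binds the neuronal chemokine fractalkine, P2RY12 senses ADP from damaged cells, and TREM2 senses lipids and apolipoproteins and signals through the adaptor TYROBP.

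The 9 genes did not shift uniformly in Positive nuclei: 7 genes had a higher and 2 a lower mean than in Input, and limma's test over all 16422 genes called 0 of the 9 in either direction, against 0% of all genes called higher and 0% called lower. The median log2 fold change of the 9 was 0.28, where all genes had a median of -0.02. It was 0.13 without Input 55, 0.17 without Positive 40 and 0.43 without Input 40. A positive log2 fold change was held by 47% of all genes. At an unadjusted p under 0.05, Ctss and C1qc were higher and 0 of the 9 were lower, where 6.45% of all genes were higher and 7.76% lower. The lowest Positive value exceeded the highest Input value in Ctss, C1qc and Tmem119, or 3 of the 9 (16.7% of all genes), and the highest Positive value was under the lowest Input value in C1qb, or 1 of the 9 (21.8% of all genes). In bulk nuclei, more microglial nuclei and more RNA per nucleus cannot be told apart.

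The members varied more between libraries of 1 group than most genes did. Their residual SD on the log2 scale had a median of 0.26 and ranged from 0.17 to 0.78, against a median of 0.13 over all genes, and all 9 lay above that value. Both Input libraries differed from each other by a median of 0.30 in the members and 0.12 in all genes. Relative to the Input mean, the median of the 9 genes was 0.24 in Positive 12, 0.42 in Positive 40 and 0.43 in Positive 55. Each of these 3 libraries also held at least 1 member below the Input mean, the lowest being -0.16, -0.42 and -0.68.

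**Figure D1:**
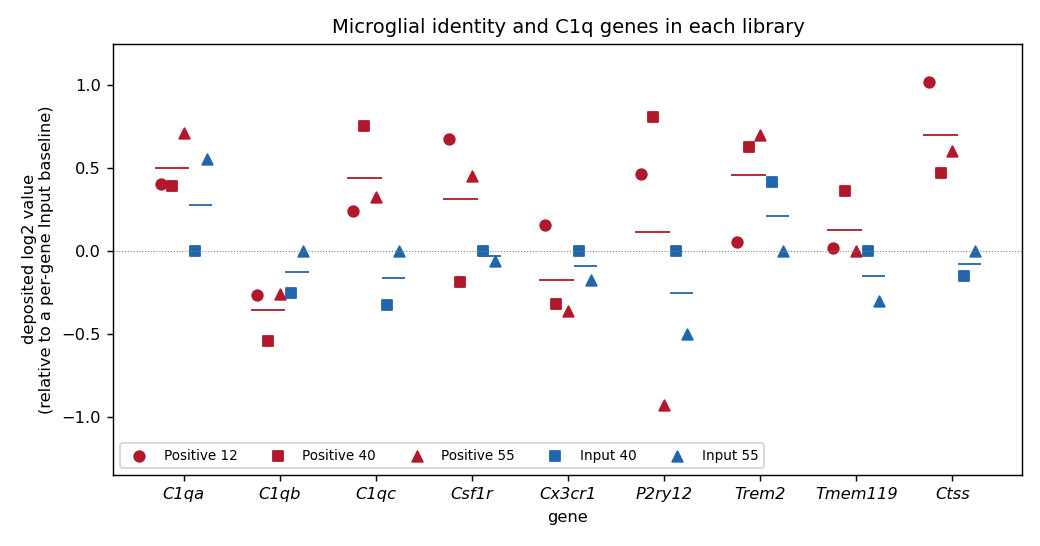
Deposited log2 values (y axis, relative to a per-gene Input baseline) of the 9 genes (x axis) in each of the 5 libraries; symbols stand for animals, red for Positive, blue for Input, and short lines for group means. The red points are all above the blue ones in C1qc and Ctss, touch them at less than 0.01 from above in Tmem119 and from below in C1qb, and mix with them in the other genes.

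The 3 C1q genes lie side by side on the minus strand of chromosome 4, within 18700 bases (mm10 chr4:136880145-136898844), and their log2 fold changes were not of 1 sign, though limma called none of them over all genes (adjusted p of 0.336 or more). C1qa, the A chain gene (Entrez gene 12259, chromosome 4, 136895916 to 136898844), stood at a log2 value of 0.40 in Positive 12, 0.39 in Positive 40 and 0.71 in Positive 55, against 0 in Input 40 and 0.56 in Input 55. Input 55 lay above Positive 12 and Positive 40, so the groups overlapped. The C1qa log2 fold change was 0.22 (SE 0.21; adjusted p = 0.613 in limma), smaller than the gap between its Input libraries. Its sign was negative without Input 40, at -0.05.

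C1qc, the C chain gene (Entrez gene 12262, chromosome 4, 136889802 to 136892914), had 0.24 in Positive 12, 0.75 in Positive 40 and 0.33 in Positive 55, against -0.32 in Input 40 and 0 in Input 55. All 3 Positive values were above both Input values, and Positive 40 was the highest. The C1qc log2 fold change was 0.60, or 1.52-fold (SE 0.20; 95% interval 0.08 to 1.12; adjusted p = 0.336 in limma).

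C1qb, the B chain gene (Entrez gene 12260, chromosome 4, 136880145 to 136886177), went the other way, with -0.26 in Positive 12, -0.54 in Positive 40 and -0.26 in Positive 55, against -0.26 in Input 40 and 0 in Input 55. Every Positive value was below both Input values, but Positive 12 and Positive 55 lay within 0.01 of Input 40. The log2 fold change of C1qb was -0.23 (SE 0.14; 95% interval -0.59 to 0.14; adjusted p = 0.464 in limma). Of the C1q genes, C1qc thus had a positive interval before adjustment over all genes, while the intervals of C1qa and C1qb both spanned 0.

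The deposited values allow C1qc to be set against C1qb within each library, because a per-gene baseline drops out when that difference is compared between groups. C1qc minus C1qb was 0.50 in Positive 12, 1.30 in Positive 40 and 0.59 in Positive 55, and -0.07 in Input 40 and 0 in Input 55. The difference was higher in all 3 Positive libraries than in both Input libraries, by a mean of 0.83. For C1qa minus C1qb the gap between the groups was 0.45 and for C1qa minus C1qc it was -0.38. These pairs were set side by side after their values were seen, so the differences are given as a description with no test. The genes flanking the C1q locus in the deposited table, Ephb2 and Epha8, both Eph receptor genes, had log2 fold changes of 0.17 (SE 0.11) and -0.44 (SE 0.17).

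As the neighbouring members with the lowest and the second-highest log2 fold change of the 9, neither called, C1qb and C1qc have their start regions shown from RefSeq (GRCm38.p6), each with 250 bases before and 50 after the gene's start, read along the gene's own minus strand. Capitals mark the PU box GAGGAA, the core of sites bound by PU.1, the transcription factor of microglia and macrophages, searched on both strands (its reverse complement is TTCCTC). The C1qb window is chr4:136886151-136886450 and the C1qc window is chr4:136892865-136893164. The deposited coordinates start C1qb, on the minus strand, at 136886177, which is not the RefSeq start that its window uses.
C1qb: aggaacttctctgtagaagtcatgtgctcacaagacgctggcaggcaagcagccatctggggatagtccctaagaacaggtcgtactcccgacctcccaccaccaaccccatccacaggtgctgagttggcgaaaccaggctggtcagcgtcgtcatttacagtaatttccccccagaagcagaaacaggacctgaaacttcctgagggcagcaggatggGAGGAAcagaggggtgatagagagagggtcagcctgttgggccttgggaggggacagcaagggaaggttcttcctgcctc
C1qc: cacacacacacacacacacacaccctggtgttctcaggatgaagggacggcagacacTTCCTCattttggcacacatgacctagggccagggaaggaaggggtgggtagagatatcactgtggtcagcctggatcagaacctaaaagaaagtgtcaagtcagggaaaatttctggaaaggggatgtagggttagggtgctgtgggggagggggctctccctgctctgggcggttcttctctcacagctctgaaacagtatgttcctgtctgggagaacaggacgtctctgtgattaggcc

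The C1qb window held 1 match, beginning 30 bases before the RefSeq start of its window. The C1qc window held 1 in the reverse orientation, beginning 193 bases before its start. Over all 32851 RefSeq windows of this length, 28.3% held at least 1 match. Windows were searched for 6 of the 9 genes, and windows of members on chromosome 18, where Csf1r lies, were left out. Of the 6, 4 held a match: besides C1qb and C1qc these were Ctss and Trem2, while P2ry12 and Cx3cr1 held none. A match describes the letters only and does not show binding.

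Of the 9 genes Ctss had the highest log2 fold change. It encodes cathepsin S, a lysosomal cysteine protease of microglia and other antigen-presenting cells that stays active at neutral pH and cleaves the invariant chain and fractalkine. The log2 value of Ctss (Entrez gene 13040, mm10 chromosome 3, 95526786 to 95556403) was 1.02 in Positive 12, 0.47 in Positive 40 and 0.61 in Positive 55, against -0.15 in Input 40 and 0 in Input 55. The lowest Positive value was above the higher Input value by more than the whole distance between the Input libraries. The log2 fold change was 0.77, or 1.71-fold (SE 0.19; 95% interval 0.28 to 1.26; unadjusted p = 0.0101), with an adjusted p of 0.331 in limma. Within animals it was 0.62 in animal 40 and 0.61 in animal 55, and Positive 12 stood 1.10 above the Input mean.

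The cathepsin K gene Ctsk, the nearest row to Ctss at lower coordinates, 17424 bases away on the same strand, showed the opposite order. Ctsk had -0.50 in Positive 12, -0.71 in Positive 40 and -0.45 in Positive 55, against 0.10 in Input 40 and 0 in Input 55. All 3 Positive libraries of Ctsk were below both Input libraries, and its log2 fold change was -0.60 (SE 0.11; adjusted p = 0.329 in limma). On the other side Golph3l, a Golgi protein gene, had 0.12 (SE 0.12).

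The Ctss start region (RefSeq, GRCm38.p6, plus strand, chr3:95526536-95526835) is shown as the member with the highest fold change, with PU boxes in capitals as above. It held 2 matches, 1 as written beginning 164 bases before the start and 1 in reverse at the start itself.
Ctss: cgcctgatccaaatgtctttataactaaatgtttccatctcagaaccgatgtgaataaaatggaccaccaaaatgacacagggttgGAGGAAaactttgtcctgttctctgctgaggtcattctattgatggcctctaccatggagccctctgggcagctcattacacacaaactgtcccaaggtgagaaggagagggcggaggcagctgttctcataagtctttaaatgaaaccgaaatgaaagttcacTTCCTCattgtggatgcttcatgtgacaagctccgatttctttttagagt

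**Figure D2:**
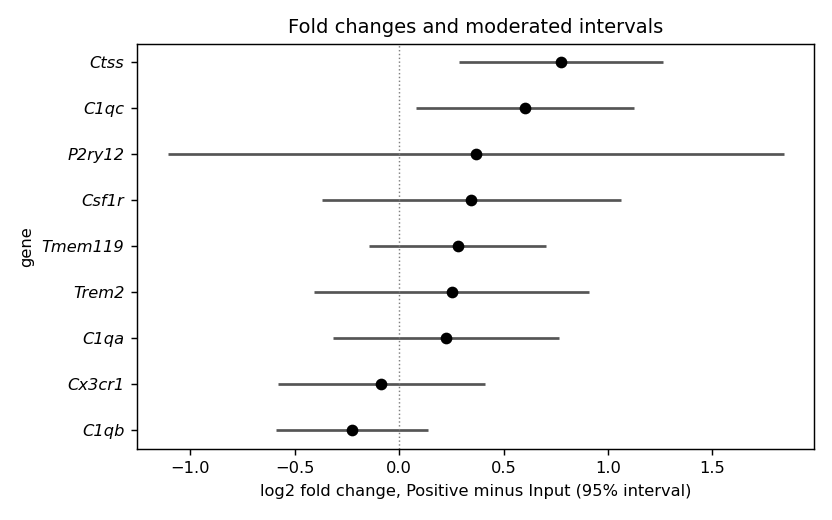
Log2 fold change of Positive over Input (x axis, point) with limma's moderated 95% interval (line) for each of the 9 genes (y axis, ordered by value). The intervals of Ctss (0.28 to 1.26) and C1qc (0.08 to 1.12) lie above 0 before adjustment over all genes, the other 7 span 0, and P2ry12 has the widest.

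Tmem119 (Entrez gene 231633, chromosome 5, 113793729 to 113800352) encodes a transmembrane protein used to tell resident microglia from incoming macrophages, and its log2 value was 0.02 in Positive 12, 0.36 in Positive 40 and 0.0028 in Positive 55, against 0 in Input 40 and -0.30 in Input 55. All 3 Positive values were above both Input values, but Positive 55 exceeded Input 40 by less than 0.01. The Tmem119 log2 fold change was 0.28 (SE 0.16; adjusted p = 0.448 in limma). Its difference was positive in each animal, at 0.36 in animal 40 and 0.30 in animal 55. Selplg, a selectin ligand gene also used as a microglial marker and the nearest row at higher coordinates, had 0.59 (SE 0.38), with Positive 40 at -0.30 between its Input libraries at 0 and -0.44.

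None of the 4 receptor genes had groups that stood apart. Csf1r (Entrez gene 12978, chromosome 18, 61105572 to 61131139) had 0.68 in Positive 12, -0.19 in Positive 40 and 0.45 in Positive 55, against 0 in Input 40 and -0.06 in Input 55. Positive 40 was the lowest of the 5 libraries, while Positive 12 and Positive 55 were the highest. The Csf1r log2 fold change was 0.34 (SE 0.27; adjusted p = 0.559 in limma), and it was 0.60 without Positive 40 and 0.16 without Positive 12. In GENCODE M21 (GRCm38), 873 of the 5774 exonic bases of Csf1r lie in exons of Hmgxb3 on the opposite strand. By the deposited coordinates these genes do not overlap and lie 138 bases apart. Hmgxb3 had a log2 fold change of -0.06 (SE 0.08).

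Cx3cr1, the fractalkine receptor gene (Entrez gene 13051, chromosome 9, 120048683 to 120068296), had 0.16 in Positive 12, -0.32 in Positive 40 and -0.36 in Positive 55, against 0 in Input 40 and -0.18 in Input 55. Positive 12 was above and the other two Positive libraries below both Input libraries. The log2 fold change of Cx3cr1 was -0.09 (SE 0.19; 95% interval -0.58 to 0.41; adjusted p = 0.836 in limma), and its sign was positive without Input 40 (0.00079) or Positive 55 (0.0063).

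Trem2 (Entrez gene 83433, chromosome 17, 48346401 to 48352276) had 0.05 in Positive 12, 0.63 in Positive 40 and 0.70 in Positive 55, against 0.42 in Input 40 and 0 in Input 55. Positive 12 lay between the Input libraries. The Trem2 log2 fold change was 0.25 (SE 0.25; adjusted p = 0.641 in limma), with 0.21 within animal 40 and 0.70 within animal 55, and it was 0.04 without Input 55.

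P2ry12 (Entrez gene 70839, chromosome 3, 59216271 to 59262831) had the widest spread of the 9 genes, with 0.46 in Positive 12, 0.81 in Positive 40 and -0.93 in Positive 55, against 0 in Input 40 and -0.50 in Input 55. Positive 55 was the lowest and Positive 40 the highest of the 5 libraries. The P2ry12 log2 fold change was 0.37 (SE 0.57; 95% interval -1.11 to 1.84; adjusted p = 0.767 in limma). It was 0.89 without Positive 55 and 0.02 without Positive 40. Within animal 40 the difference was 0.81 and within animal 55 it was -0.42.

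The P2ry12 gene lies inside Med12l, a Mediator subunit gene on the opposite strand. In GENCODE M21 all 2546 exonic bases of P2ry12 fall within the Med12l span, of which 9 fall in Med12l exons, and nuclear RNA holds introns. Whether reads were counted by strand is not given in the sources used here, so P2ry12 and Med12l reads cannot be told apart. Med12l had -0.34 in Positive 12, -0.43 in Positive 40 and 0.03 in Positive 55, against 0 in Input 40 and 0.08 in Input 55. Positive 40, where P2ry12 was highest, was thus the lowest library of Med12l. P2ry13, a related ADP receptor gene beside P2ry12 on the same strand, had 0.34 in Positive 12, -1.27 in Positive 40 and -0.40 in Positive 55, against 0 in Input 40 and -1.37 in Input 55. Unlike in P2ry12, Positive 40 was the lowest Positive library of P2ry13. By the deposited coordinates P2ry13 also lies inside Med12l on the opposite strand, so its reads cannot be told apart from Med12l reads either. Among the remaining nearest rows of the members, the log2 fold change was 1.81 for Igsf10 (SE 0.88), 0.66 for Xirp1 (SE 0.38), 0.26 for Slc25a38 (SE 0.11), 0.25 for the pericyte receptor gene Pdgfrb (SE 0.09), 0.15 for Iscu (SE 0.12), 0.0081 for Nfya (SE 0.07) and -0.01 for B430306N03Rik (SE 0.40).

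Set against their own animals, Csf1r and P2ry12 were the 2 members whose differences had opposite signs in animals 40 and 55. Counting Positive 12 against the Input mean as well, C1qa, C1qc, Tmem119 and Ctss, or 4 of the 9, had 3 positive differences, as did 25.4% of all genes, and C1qb had 3 negative ones. The median over the 9 genes was 0.36 within animal 40 and 0.30 within animal 55, where the medians of all genes were -0.01 and -0.03.

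**Figure D3:**
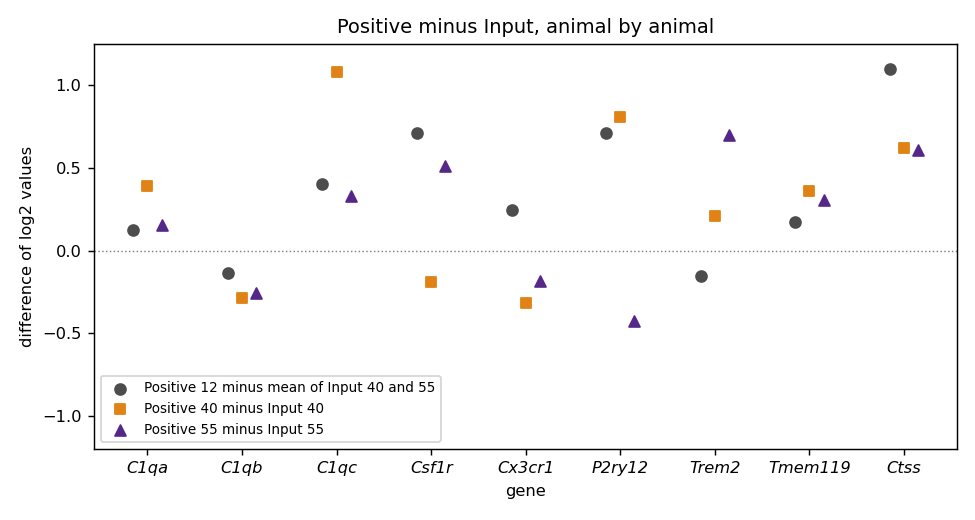
Difference of log2 values (y axis) between Positive and Input for the 9 genes (x axis): within animal 40 (squares), within animal 55 (triangles), and Positive 12 against the mean of both Input libraries (circles). Ctss lies between 0.61 and 1.10 in all 3, C1qb lies below 0 in all 3, and P2ry12 lies at 0.71, 0.81 and -0.42.

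Other microglial identity genes were split as well. Of 27 genes listed, 26 had a row: 16 had a positive and 10 a negative log2 fold change, with a median of 0.09. Limma called 0 over all genes. At an unadjusted p under 0.05, 0 were higher and 0 lower (6.45% and 7.76% of all genes). Every Positive value exceeded both Input values in 6 of the 26 (16.7% of all genes) and was under both in 2 (21.8% of all genes). The highest values were those of Ptprc, the CD45 phosphatase gene, at 0.69 (SE 0.29), and of Selplg. The lowest were those of Aif1, which encodes the microglial protein IBA1, at -0.46 (SE 0.30), and the transporter gene Slco2b1 at -0.44 (SE 0.17). The PU.1 gene, listed under its older symbol Sfpi1, had -0.19 (SE 0.73), with 1.01 in Positive 40, -1.19 in Positive 12 and -1.01 in Positive 55, and met the authors' raw-value filter in 1 condition.

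The ligands and signalling partners of the receptors had a median of 0.20 in log2 fold change over 15 genes. Of these, 10 had a positive and 5 a negative value, and limma called 0 over all genes. At an unadjusted p under 0.05, 2 were higher and 0 lower (6.45% and 7.76% of all genes). Apoe, an apolipoprotein gene that Müller glia also express and whose product TREM2 binds, had 0.44 in Positive 12, 0.85 in Positive 40 and 0.68 in Positive 55, against 0 in Input 40 and 0.12 in Input 55. Its groups did not overlap, and its log2 fold change was 0.60 (SE 0.14; adjusted p = 0.331 in limma). Tyrobp, the adaptor gene of Trem2, had 0.65 in Positive 12, 1.27 in Positive 40 and -0.30 in Positive 55, against 0.22 in Input 40 and 0 in Input 55. Like P2ry12, Tyrobp was highest in Positive 40 and lowest in Positive 55, and its log2 fold change was 0.43 (SE 0.47). The CSF1R ligand genes Csf1 and Il34 had 0.20 (SE 0.17) and 0.06 (SE 0.18), and the fractalkine gene Cx3cl1 had 0.22 (SE 0.13). At the low end were Hcst, another adaptor gene, at -0.28 (SE 0.96), which met the raw-value filter in 1 condition, and the phosphatase gene Ptpn6 at -0.16 (SE 0.16).

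Among complement genes other than C1q the median log2 fold change was 0.01, with 13 of the 26 with a row positive and 13 negative. Limma called 0 over all genes, with 2 higher and 0 lower at an unadjusted p under 0.05 (6.45% and 7.76% of all genes). Itgb2, the beta chain gene of the complement receptor CR3, had 0.58 (SE 0.39). The partners of C1q in the C1 complex were below 0, with C1s at -0.69 (SE 0.38) and C1ra at -0.24 (SE 0.32). Downstream, C4b had 0.10 (SE 0.15), C2 had -0.31 (SE 0.20) and C3 had -0.16 (SE 0.16), and C8a, of the membrane attack complex, had -0.44 (SE 0.53) and met the raw-value filter in 1 condition.

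Beside Ctss, the median log2 fold change of other cathepsin and lysosomal genes was 0.17 over 22 genes, 15 positive and 7 negative. Positive values were all above the Input values in 10 of the 22 (16.7% of all genes) and all below in 3 (21.8% of all genes). Limma called 0 over all genes, with 5 higher and 1 lower at an unadjusted p under 0.05 (6.45% and 7.76% of all genes). Ctsc, the gene of cathepsin C, had 0.69 in Positive 12, 0.66 in Positive 40 and 0.65 in Positive 55, against 0 in Input 40 and 0.09 in Input 55. Its log2 fold change of 0.63 had an SE of 0.07 and an adjusted p of 0.267 in limma. Ctsh, a cathepsin with aminopeptidase activity, had 0.48 (SE 0.11), and the low end was formed by Ctsk and the glucuronidase gene Gusb at -0.17 (SE 0.12).

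Genes that rise in activated microglia of mouse disease models had a median of 0.31 in log2 fold change, with 13 of the 15 with a row positive and 2 negative. Limma called 0 over all genes, with 5 higher and 0 lower at an unadjusted p under 0.05 (6.45% and 7.76% of all genes). Cd9, a tetraspanin gene, had 0.66 (SE 0.18), followed by Apoe. Gpnmb, a lysosomal glycoprotein gene, had -0.27 (SE 0.13) and Igf1, a growth factor gene, had -0.13 (SE 0.16). The 5 higher genes were Cd9, Apoe, Ctsd, Axl and B2m. Itgax, Clec7a and Cst7 of this list had no row. Apoe, Tyrobp, Csf1, Ctsb, Ctsd and Cd63 also belong to the ligand or lysosomal lists above, so the lists are not independent. Whether these values come from microglia was not tested.

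Markers of perivascular macrophages, monocytes, lymphocytes and red cells did not form 1 pattern. Of 15 genes of perivascular macrophages and monocytes, 8 had a row, 6 positive and 2 negative, and their median log2 fold change was 0.26. Limma called 0 of the 8 over all genes, with 1 higher and 1 lower at an unadjusted p under 0.05 (6.45% and 7.76% of all genes). Mrc1, the mannose receptor gene of perivascular macrophages, had 1.64 in Positive 12, 1.10 in Positive 40 and 0.90 in Positive 55, against -0.16 in Input 40 and 0 in Input 55. Its log2 fold change was 1.29 (SE 0.24; adjusted p = 0.329 in limma), but Mrc1 met the authors' raw-value filter in just 1 of the conditions, so its place in the table and the gap between its groups are not independent. The 2 negative genes were scavenger receptor genes of these macrophages: Stab1 had -0.35 (SE 0.11) and Cd163 had -0.33 (SE 0.38). H2-Ab1 at 0.47 (SE 0.42), Ms4a7 at 0.33 (SE 0.34), Lyve1 at 0.19 (SE 0.21) and Ccr2 at 0.01 (SE 0.20) were above 0. Cd74, the invariant chain gene, which likewise met the filter in 1 condition, had 1.51 (SE 1.40), with -3.92 in Input 40. Lymphocyte and red cell genes had a median of -0.33, with 1 of 7 positive. Cd79b of B cells had -0.74 (SE 0.26), while Cd3d of T cells had 0.03 (SE 0.34).

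Values of markers of other retinal cells in the same libraries are given beside those of the members, and their part in the members' values was not tested. Each of the 14 Müller glia markers listed was higher in all 3 Positive libraries than in both Input libraries (16.7% of all genes), and their median log2 fold change was 0.44. Per library against Input, the Müller median was 0.41 in Positive 12, 0.57 in animal 40 and 0.36 in animal 55. The median was 0.55 for 14 endothelial markers (13 positive), 0.51 for 11 pigment epithelium markers (9 positive) and 0.05 for 12 rod markers (8 positive). The 9 microglial and C1q genes, at 0.28, lay between the rod and the Müller medians. Limma called 0 genes of the Müller, endothelial, pigment epithelium and rod lists over all genes. At an unadjusted p under 0.05, 10, 8, 4 and 0 of them were higher and 0 lower (6.45% and 7.76% of all genes). Over all 16422 genes limma called 0, with 2334 at an unadjusted p under 0.05, and with animal fitted as a random replicate block it called 4 genes higher and 7 lower, with 0 of the 9 among them.

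**Figure D4:**
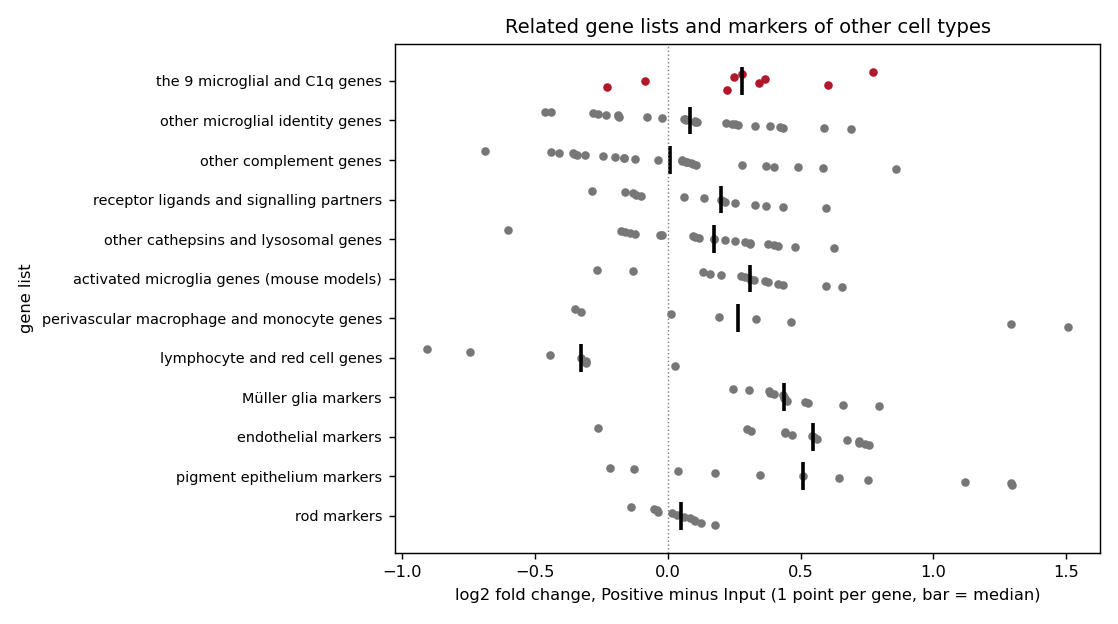
Log2 fold change of Positive over Input (x axis) for each gene with a row (points) and the median (black bar) of the 9 genes (red) and of 11 gene lists (grey, y axis). The 9 genes have a median of 0.28 and spread from -0.23 to 0.77, other microglial genes centre on 0.09, and Müller, endothelial and pigment epithelium markers centre between 0.44 and 0.55.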

How the data were processed

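The authors deposited 1 table of normalised log2 values for 5 libraries, with 16423 rows. RefSeq gene models were used and a row needed raw values of at least 5 in all libraries of 1 condition, per the file headers. The build was mm10 and DESeq was used, per the submitters' processing notes; aligner, counter and strand setting: not given in the sources used here. One Input library was exactly 0 in nearly all genes (neither was in 393), so values are relative to an Input baseline of each gene. Depth is unknown, so counting error has no interval here.

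The 3 Positive and 2 Input libraries were compared on these values with limma 3.58.1 (R 4.3.3; 1 row per symbol, 16422 genes, empirical Bayes without trend, two-sided, Benjamini-Hochberg, threshold 0.05), after checking the fit on simulated data. That check required planted fold changes, larger in size than any member's, to be recovered in independent simulated libraries. It set no requirement on calls. Intervals are limma's moderated 95% intervals. The members and lists were chosen with earlier results of these data known, and lists were described by counts and medians without a test. Named genes were the 9 members, the 2 highest and 2 lowest of each list, 7 fixed genes, the rows overlapping or nearest to each member, and the 5 nearest profiles; P2ry13, C1ra, C4b, C2 and C3 were added for their roles, and the list ends of the cell type markers are given as medians only. A few genes that this rule picks are left out of the text. The labels give same-numbered libraries 1 animal number. Across genes, deviations from the group means correlated at 0.174 in animal 40 and 0.195 in animal 55. With 2 Input libraries, their deviations mirror each other, so both values rest on 1 difference between the Input libraries. They are therefore not independent of each other. Alternatives were the animal as a fixed or random block, other normalisations, variance models, a stricter filter and leaving out each library.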

Additional observations from a re-analysis of the deposited data

How the results depend on the processing

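Fitting animal as a random replicate block gave 4 genes higher and 7 lower in Positive, against 0 and 0 without a block; the fixed replicate block, which takes Positive 12 out of the contrast, called 0, and neither block called any of the 9 genes or changed another call. The cause was not tested. The median log2 fold change of the 9 ran from 0.13 to 0.43 when each library was left out in turn. Under 12 alternatives C1qb stayed negative (-0.36 to -0.06) and C1qc (0.44 to 0.76), Ctss (0.61 to 0.89), Tmem119 (0.13 to 0.43), Csf1r (0.16 to 0.60) and P2ry12 (0.02 to 0.89) stayed positive. Not all of the 12 could change a sign. The stricter filter and the variance models leave fold changes as they are, and the fixed block gives those found without Positive 12. C1qa turned negative after quantile normalisation (-0.061) and ran from -0.054 (without Input 40) to 0.50 with a library left out. Trem2 turned negative after quantile normalisation (-0.029). Cx3cr1 turned positive after quantile normalisation (0.0098) and ran from -0.25 to 0.0063 (without Positive 55) with a library left out, with 0.00079 without Input 40. The lowest adjusted p of any member was 0.114, for Ctss with the random block. The count of members with every Positive library above both Input libraries was 3 or 4 in alternatives added after the data were seen, beside 11.6% to 27.6% of all genes. Depth is unknown and a group has 2 or 3 libraries, which limits all values.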

Other observations

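The genes whose profile over the 5 libraries came nearest to the mean of the 9 microglial and C1q genes, each centred on its Input mean, were Psma3 (a proteasome subunit gene), Ifngr2 (an interferon gamma receptor chain gene), Schip1, Vgll4 (a transcriptional cofactor gene of the Hippo pathway) and Sfxn5. The root mean square difference from that mean profile was 0.021 for Psma3, 0.021 for Ifngr2, 0.022 for Schip1, 0.026 for Vgll4 and 0.026 for Sfxn5 on the log2 scale, over 5 libraries. The mean profile itself was 0.35 in Positive 12, 0.31 in Positive 40 and 0.18 in Positive 55. These genes were picked for that nearness out of 16422, so it is a description with no test.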
